A study of Mus musculus with 33 samples.

Results

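The solute carrier families SLC1, SLC3, SLC6, SLC7, SLC36, SLC38 and SLC43 hold most of the proteins that move amino acids across the membranes of mammalian cells. Their mRNAs were followed in sorted mammary epithelial and tumor cells of PTHrP WT and PTHrP KO mice. Members were the protein-coding genes whose symbol was Slc followed by 1, 3, 6, 7, 36, 38 or 43 and a member number, provided that the sum of their reads over all libraries was at least 10. All 61 genes with such a symbol passed, out of 36527 genes tested. They were 19 genes of SLC6, 15 of SLC7, 11 of SLC38, 7 of SLC1, 4 of SLC36, 3 of SLC43 and 2 of SLC3, and the rule itself reads symbols and summed reads, not differences between groups. The symbol rule also takes in carriers of taurine, creatine, GABA and monoamines, which belong to SLC6.

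The data were RNAseq counts from 33 mice, with 1 library per mouse. WT mice were Pthrpwt/wt; Cre+; mTmG and KO mice were Pthrpflox/flox; Cre+; mTmG, with Cre driven by the MMTV promoter and the floxed line backcrossed from C57BL/6 to FVB. Both genotypes therefore carried Cre and the mTmG reporter, which turns from a red to a green (GFP) membrane protein in cells where Cre has acted. Tumor mice also carried the PyMT oncogene under the MMTV promoter, and tumor-free mice did not. There were 3 WT tumors each at weeks 6, 8 and 10 and 1 at week 12, and 3 KO tumors each at weeks 8, 10 and 12. Glands of tumor-free mice numbered 2 per age, at weeks 6, 8, 10 and 12 in the WT and at weeks 8, 10 and 12 in the KO. GFP+ cells were sorted after incubation in serum-containing medium rich in amino acids, so the levels are those of cells after a short culture. In the study's staging, hyperplasia was WT week 6 and KO week 8, adenoma WT week 8 and KO week 10, and carcinoma WT week 10 and KO week 12.

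Amino acid transporters fall into systems named for what they carry. System L exchanges large neutral amino acids such as leucine, through light chains (LAT1, encoded by Slc7a5, and LAT2, encoded by Slc7a8) held at the membrane by the heavy chain 4F2hc (Slc3a2), or through the single-chain facilitators LAT3 (Slc43a1) and LAT4 (Slc43a2). System A takes up small neutral amino acids with sodium, system N carries glutamine, histidine and asparagine, and cationic carriers bring in arginine and lysine. Lactating mammary epithelium relies on these systems to feed milk protein synthesis, and many tumors use LAT1, the glutamine carrier ASCT2 (Slc1a5) and the cystine carrier xCT (Slc7a11).

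Between 28419983 and 130981596 reads were counted per library, and 37686 to 308425 of these fell on the 61 genes. Together they gave a median of 2266 CPM (read counts relative to the TMM-scaled size of each library) over the 33 libraries. WT glands had a median of 2345 CPM, WT tumors 2179, KO glands 2260 and KO tumors 2266, with overlapping ranges. Hence the summed level differed less between groups than between mice, and the differences described here lay in which transporters made up the sum. Of the 61 genes, 33 had a median of at least 1 CPM, 23 stayed under 1 CPM in every library, and 37 had reads in every library.

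The level per length of transcript (CPM per kb of exon) was led by a few carriers in glands and tumors alike. Slc38a2, which encodes the system A carrier SNAT2, had a median of 58.9 CPM per kb over all libraries, with a range of 44.3 to 110. Slc6a6, the taurine transporter, followed with 52.3 (28.6 to 89.7), and Slc3a2 had 45.3 (30.3 to 54.8). These 3 ranges overlapped, so their order was not fixed from mouse to mouse. Next came Slc38a10, an endomembrane member of SLC38, at 30.1, the creatine transporter Slc6a8 at 21.4, and Slc7a5 at 18.2. Slc38a2 and Slc6a6 alone held a median of 45.3% of the reads on these genes in glands and 43.3% in tumors.

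**Figure D1:**
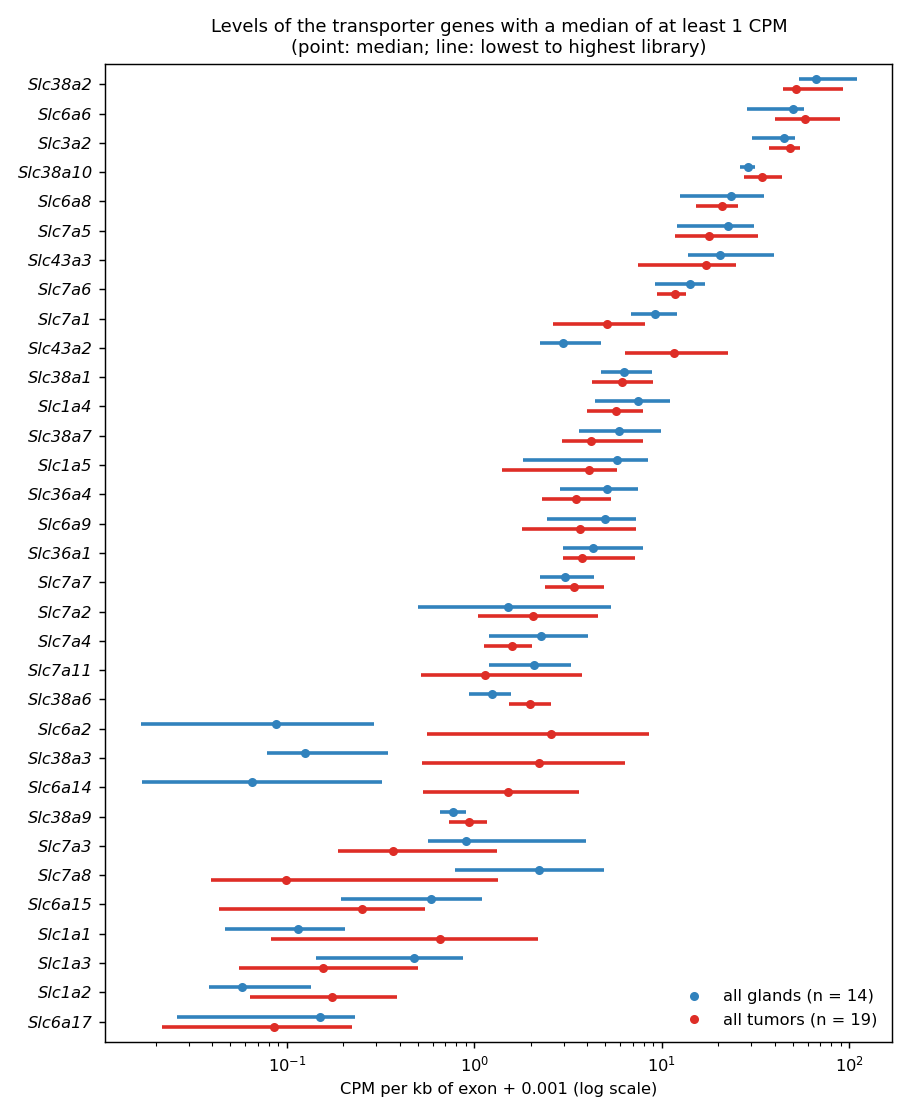
Level of each transporter gene with a median of at least 1 CPM, in CPM per kb of exon plus 0.001 (log axis), for 14 glands (blue) and 19 tumors (red). The point is the median and the line runs from the lowest to the highest library, and the lines of Slc6a2, Slc38a3, Slc6a14 and Slc43a2 do not overlap between tissues.

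The cells were checked against marker genes before the tumors were set against the glands. The summed level of 10 luminal markers, among them keratins and Epcam, was high in all groups, between 4352 and 10523 CPM. Of these 10 markers, 2 were higher and 3 lower in WT tumors, and 4 were higher and 2 lower in KO tumors. All 10 basal or myoepithelial markers fell in tumors of both genotypes, and their sum went from 4789 to 18192 CPM in WT glands to 990 to 3332 in WT tumors, and from 5075 to 17327 in KO glands to 1499 to 4981 in KO tumors. Of 10 fibroblast markers 6 fell in WT tumors and 1 fell in the KO, and of 10 endothelial markers 6 and 2 did. Their sums had medians of 47.5 and 21.0 CPM in WT glands, where 1 gland reached 775 CPM of fibroblast markers, and lymphocyte markers summed to at most 23.8 CPM in any library, with Nkg7 at 0 in 23 of the 33. Adipocyte markers summed to at most 40.1 CPM, mostly Lipe, with Cfd at 0 in 21 libraries. The macrophage sum was higher in tumors (151 to 418 CPM) than in most glands (62.9 to 173), and most of it was Cd14. Of the 10 macrophage markers, 1 was higher and 4 were lower in WT tumors, and 2 were higher and none lower in KO tumors, while Adgre1 had medians of 0.115 CPM in glands and 0.126 in tumors. A fall in a basal marker can mean fewer basal cells or less RNA per cell, and bulk counts cannot tell these apart. The share of counted reads on ribosomal RNA was at most 0.447% in WT libraries and reached 18.8% in KO libraries, with 4 KO libraries over 5%. These were 1 gland each of weeks 8, 10 and 12 (15.7%, 8.04% and 18.8%) and 1 tumor of week 8 (12.0%). The median share was 6.20% in KO glands and 0.952% in KO tumors, so it also differed between the tissues compared in KO mice. Pthlh, which encodes PTHrP, had 2.93 to 7.72 CPM in WT glands, 2.79 to 8.52 in KO glands, 1.46 to 6.67 in WT tumors and 1.35 to 2.29 in KO tumors. Every KO tumor lay below every gland of either genotype, and all other pairs of groups overlapped. Only a part of the gene is deleted, so whole-gene counts do not check the deletion.

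Tumors and glands of 1 genotype were compared first, to ask which transporters separate transformed from normal epithelium. DEGs were genes that changed more than 1.5-fold with an adjusted p under 0.1 (Benjamini-Hochberg over all 36527 genes, edgeR quasi-likelihood test). In WT mice, 22 of the 61 genes were DEGs between 9 tumors and 6 glands of weeks 6, 8 and 10, 7 higher and 15 lower in tumors. Over all genes tested 15.7% were DEGs, 6.21% higher and 9.53% lower. In KO mice, 19 were DEGs between 9 tumors and 6 glands of weeks 8, 10 and 12, 8 higher and 11 lower, against 10.6% of all genes (5.16% higher and 5.44% lower). The median log2 fold change of the 61 genes was −0.28 in WT mice, beside 0.03 for all genes, and −0.04 in KO mice, beside 0.09. Marker sums of the WT were taken over all 8 glands and 10 tumors, the libraries of week 12 included. The median marker sum of WT glands and WT tumors went from 8696 to 2498 CPM for basal, from 21.0 to 6.09 for endothelial and from 88.7 to 242 for macrophage markers. In KO mice it went from 9398 to 2458, from 16.05 to 4.83 and from 101 to 218 CPM. Fibroblast sums overlapped widely, with medians of 47.5 and 36.7 CPM in WT and 36.6 and 50.6 in KO glands and tumors. The part of these cells in the result was not tested.

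The 2 genotypes shared most of these DEGs. The fold changes of each came from its own libraries, while scaling and the estimate of spread came from 1 fit of all libraries. Slc1a1, Slc1a2, Slc38a3, Slc38a6, Slc43a2, Slc6a14 and Slc6a2 were higher in tumors of both genotypes. Slc1a3, Slc1a6, Slc38a4, Slc38a5, Slc43a1, Slc6a15, Slc7a1, Slc7a3 and Slc7a8 were lower in tumors of both. A further 6 genes were lower in WT tumors only by the thresholds (Slc1a4, Slc6a12, Slc6a3, Slc6a4, Slc7a11 and Slc7a4), 2 were lower in KO tumors only (Slc1a5 and Slc43a3), and 1 was higher in KO tumors only (Slc6a18). For none of these 9 did the test of the difference between the genotypes pass (weeks 8 and 10), and no gene was called in opposite directions. Of the 25 genes called in either genotype, 17 had a median of at least 1 CPM.

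**Figure D2:**
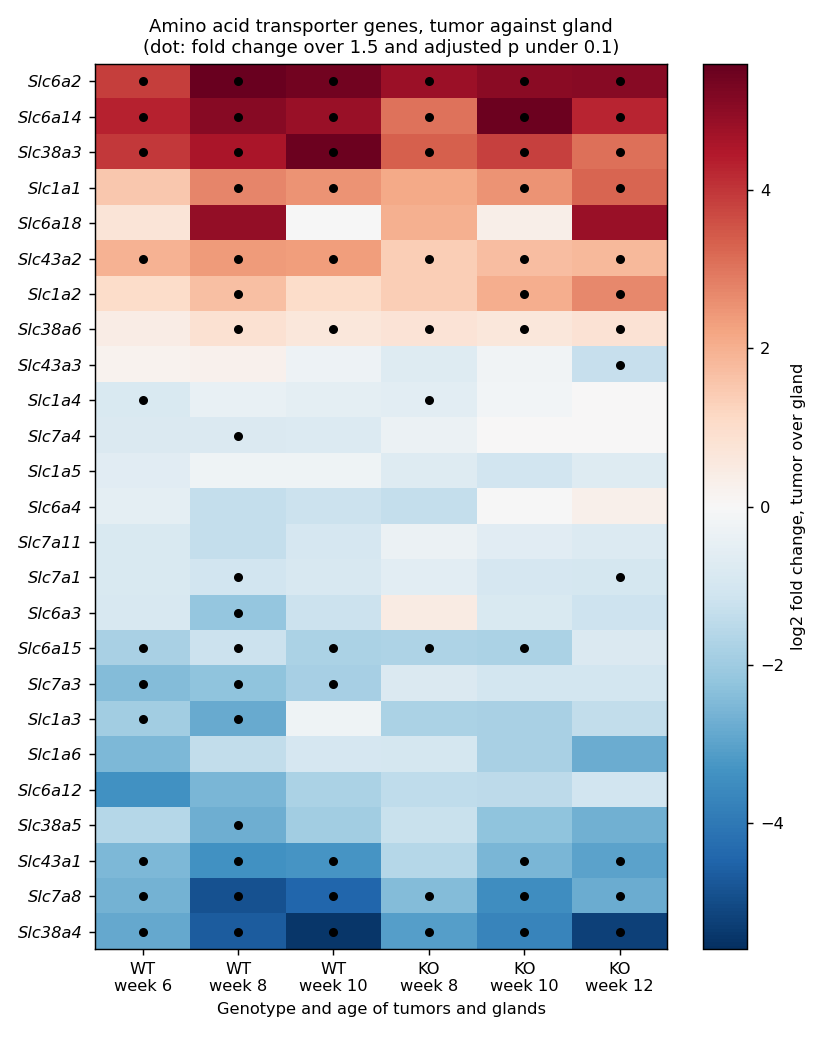
log2 fold change of tumor over gland at each genotype and age, for the 25 transporter genes called in either averaged comparison, as colour from blue (lower in tumors) to red (higher). A dot marks a fold change over 1.5 with an adjusted p under 0.1, and 6 genes carry a dot in all 6 columns.

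The sequence before the RefSeq start sites of these genes was examined because several of them moved together and because amino acid transporter genes are known targets of the stress factor ATF4. RefSeq promoters (250 bases before to 50 after a start, GRCm38.p6) were found for 43 of the 61 genes, with 64 windows among 32851 in all. A total of 3 motifs were searched on both strands, with no mismatch allowed. TGATGNAA, the composite element of ATF4 and C/EBP, was in 3.97% of all promoters and in 5 of the 64 windows, which belonged to Slc7a11, Slc1a4, Slc7a7 and Slc6a21. TTCNNNGAA, the STAT5 palindrome of prolactin signalling, was in 8.3% of all promoters and in windows of Slc7a11, Slc7a1, Slc38a9 and Slc1a3. TGACGTCA, the cAMP response element, was in 1.79% of all promoters and in 1 window, that of Slc38a6. A match describes letters and does not show binding.

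For each gene with a match that was called between tumors and glands, 1 stretch is shown 5′ to 3′ on the gene's strand, with the motif in capitals and positions counted to the first base of the match from the start site. Slc7a11 carried the first motif at −66 and, on the other strand, at −47 from its start, and the STAT5 palindrome at −183, outside the stretch shown, and Slc1a4 carried it, also on the other strand, from −4, and both genes were lower in WT tumors. Slc7a1 carried the STAT5 palindrome at −146 of 1 of its starts and Slc1a3 at −96, both lower in tumors, and Slc38a6, higher in tumors, carried the cAMP response element at −121.
Slc7a11, chr3:50443646-50443705, minus strand: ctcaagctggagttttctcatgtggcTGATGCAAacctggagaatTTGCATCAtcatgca
Slc1a4, chr11:20332710-20332743, minus strand: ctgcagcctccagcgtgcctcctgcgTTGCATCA
Slc7a1, chr5:148392927-148392987, minus strand: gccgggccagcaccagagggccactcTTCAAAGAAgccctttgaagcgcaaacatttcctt
Slc1a3, chr15:8710869-8710929, minus strand: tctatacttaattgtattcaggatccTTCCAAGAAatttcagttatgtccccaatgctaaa
Slc38a6, chr12:73286701-73286760, plus strand: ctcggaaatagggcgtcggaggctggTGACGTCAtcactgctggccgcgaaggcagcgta

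None of the 3 motifs was found in the windows of Slc6a14, Slc43a2, Slc7a8 and Slc38a4, the genes called at all 6 genotypes and ages that have an entry. They are shown to let their composition be compared, as the first 150 bases of the window of the most upstream start listed. The windows of Slc43a2 and Slc7a8 were rich in CpG (22 and 20 CpG, 63.7% and 58.0% GC), and those of Slc6a14 and Slc38a4 were not (4 and 5 CpG, 52.7% and 53.0% GC). The median over all promoters was 7 CpG and 52.7% GC, so each kind of promoter was present among genes that rose and genes that fell.
Slc6a14, chrX:21714650-21714799, plus strand: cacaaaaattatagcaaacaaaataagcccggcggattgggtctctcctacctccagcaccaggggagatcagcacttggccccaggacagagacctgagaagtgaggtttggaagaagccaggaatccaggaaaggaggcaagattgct
Slc43a2, chr11:75531444-75531593, plus strand: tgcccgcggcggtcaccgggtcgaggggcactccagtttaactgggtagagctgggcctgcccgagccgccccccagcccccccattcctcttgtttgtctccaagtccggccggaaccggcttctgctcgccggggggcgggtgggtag
Slc7a8, chr14:54781987-54782136, minus strand: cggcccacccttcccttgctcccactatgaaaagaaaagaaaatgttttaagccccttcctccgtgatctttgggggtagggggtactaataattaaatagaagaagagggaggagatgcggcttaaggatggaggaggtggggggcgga
Slc38a4, chr15:97056057-97056206, minus strand: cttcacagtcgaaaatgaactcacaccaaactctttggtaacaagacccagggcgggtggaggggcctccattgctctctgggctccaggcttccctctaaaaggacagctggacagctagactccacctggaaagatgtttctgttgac

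Among the carriers of systems N and A, Slc38a3 was higher and Slc38a4 and Slc38a5 were lower in tumors of both genotypes. Slc38a3 (chr9:107650634-107669530, GRCm38), which encodes the glutamine carrier SNAT3, ranged from 0.406 to 0.997 CPM in the 6 WT glands (median 0.480) and from 2.79 to 33.8 in the 9 WT tumors (median 15.1). In KO mice it ranged from 0.746 to 1.83 CPM in glands (median 0.903) and from 3.12 to 18.3 in tumors (median 10.9). No tumor overlapped a gland in either genotype. The log2 fold change was 4.66 ± 0.40 (SE) in WT mice (adjusted p = 4.37e-09) and 3.43 ± 0.38 in KO mice (adjusted p = 4.39e-07), by edgeR. The other system N gene, Slc38a5, had 0 to 33 reads per library and was lower in tumors, with log2 fold changes of −2.10 ± 0.55 and −2.07 ± 0.58. Its KO value went to 0.12 without replicate 1 of the KO glands of week 12, which leaves week 12 with a single gland of 0 reads. At KO weeks 8 and 10, which that library does not touch, the glands had 0.216, 0.144, 0.0681 and 0.326 CPM and the tumors 0.0256 to 0.107, with overlap.

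Slc38a4, which encodes the system A carrier SNAT4, is an imprinted gene known for its expression in liver and placenta, and it went the other way from Slc38a3. It ranged from 0.482 to 10.0 CPM in WT glands (median 3.41) and from 0 to 0.880 in WT tumors (median 0.173). In KO mice the ranges were 1.48 to 11.3 CPM in glands (median 4.05) and 0.0694 to 1.09 in tumors (median 0.307). The ranges overlapped in WT mice, through a single gland of 0.482 CPM, and not in KO mice. The log2 fold changes were −4.34 ± 0.57 (adjusted p = 2.47e-06) and −4.00 ± 0.55 (adjusted p = 7.84e-06). They were −3.19 without replicate 1 of the WT glands of week 10 and −3.28 without replicate 1 of the KO glands of week 12, and still called. The system A genes near it on chromosome 15 changed less, with Slc38a1 (SNAT1) at −0.16 ± 0.13 and −0.11 ± 0.13 and Slc38a2 at −0.28 ± 0.10 and −0.21 ± 0.10, none of them called. The 3 genes lie on the minus strand at chr15:96571418-96642913 (Slc38a1), chr15:96687392-96699730 (Slc38a2) and chr15:96994820-97055956 (Slc38a4). Slc38a2 made up a median of 90.5% of the system A level (CPM per kb) in glands and 89.7% in tumors, so the fall of Slc38a4 changed the composition of system A little. Among the 6 other SLC38 genes, Slc38a6 rose by a smaller amount, from a median of 9.70 to 15.97 CPM in WT mice and from 9.11 to 14.5 in KO mice, with no overlap in either (log2 fold change 0.64 ± 0.11 and 0.72 ± 0.11).

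System L shifted between its members. Slc43a2 (chr11:75531694-75577575), encoding LAT4, ranged from 22.5 to 35.2 CPM in WT glands (median 29.8) and from 67.2 to 227 in WT tumors (median 140). The KO ranges were 27.0 to 47.8 CPM for glands (median 32.3) and 67.0 to 159 for tumors (median 110). Every tumor was above every gland. An antisense gene, Gm45606, shares 922 of the 10042 exon bases of Slc43a2 and had 579 reads over all libraries, against 151707 for Slc43a2. The log2 fold change was 2.24 ± 0.17 in WT mice (adjusted p = 8.64e-10) and 1.64 ± 0.16 in KO mice (adjusted p = 1.18e-07).

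Slc7a8 (chr14:54722209-54781946), encoding LAT2, fell in the same tumors. It ranged from 3.93 to 16.5 CPM in WT glands (median 11.1) and from 0.192 to 3.64 in WT tumors (median 0.383), with no overlap. In KO mice it ranged from 4.63 to 24.6 CPM in glands (median 11.4) and from 0.402 to 6.66 in tumors (median 1.33), where 1 tumor of week 8 lay within the gland range. The log2 fold changes were −3.98 ± 0.35 (adjusted p = 6.96e-09) and −2.90 ± 0.33 (adjusted p = 7.29e-07). Slc43a1, encoding LAT3, fell from a median of 3.15 to 0.403 CPM in WT mice and from 2.55 to 0.399 in KO mice (−3.06 ± 0.36 and −2.39 ± 0.35). Slc43a3, which lies near it on chromosome 2 and encodes a purine nucleobase carrier, had 64.6 CPM in WT glands and 77.0 in WT tumors (0.05 ± 0.19), and was lower in KO tumors, at 78.7 against 105 CPM (−0.73 ± 0.19). That KO call was lost without replicate 1 of the KO glands of week 12, where the value was −0.45.

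The most abundant light chain gene, Slc7a5, did not pass the fold threshold. It had a median of 98.2 CPM in WT glands and 61.7 in WT tumors (log2 fold change −0.57 ± 0.17, adjusted p = 0.0164), and 66.3 and 83.1 CPM in KO mice (0.24 ± 0.17). The heavy chain gene Slc3a2 had 159 CPM in WT glands, 172 in WT tumors, 157 in KO glands and 156 in KO tumors, with log2 fold changes of 0.05 ± 0.09 and 0.12 ± 0.09. Per kb of exon, the summed system L level had a median of 30.7 CPM per kb in WT glands, 29.7 in WT tumors, 23.3 in KO glands and 32.5 in KO tumors, all with overlapping ranges. Within that sum, Slc43a2 went from a median of 10.6% in the 14 glands (7.09% to 22.6%) to 36.8% in the 19 tumors (26.8% to 58.6%). Slc7a5 went from 78.2% to 61.6%, Slc7a8 from 7.13% to 0.353% and Slc43a1 from 1.73% to 0.229%. The shares of 1 library add up to the whole, so a rise of 1 gene lowers the others' shares by itself.

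**Figure D3:**
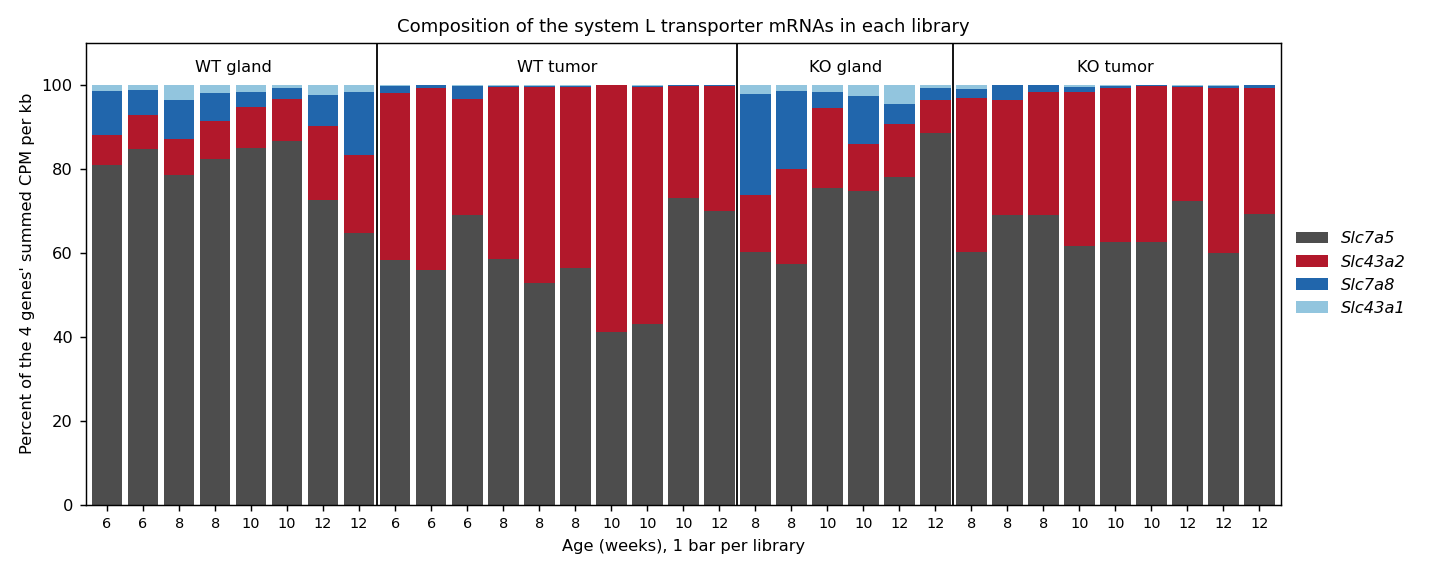
Percent of the summed CPM per kb of 4 system L genes (Slc7a5, Slc43a2, Slc7a8 and Slc43a1), 1 stacked bar per library, with age in weeks below. The red part, Slc43a2, is larger in each of the 19 tumors than in each of the 14 glands, and the blue part, Slc7a8, is visible mainly in glands.

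Cationic carriers were lower in tumors where they changed. Slc7a1, encoding CAT1, the main uptake route for arginine and lysine in many cells, ranged from 98.2 to 133 CPM in WT glands (median 106) and from 30.5 to 90.3 in WT tumors (median 57.3), with no overlap. The KO medians were 119 CPM for glands and 58.7 for tumors, with overlapping ranges. The log2 fold changes were −0.95 ± 0.19 (adjusted p = 0.000542) and −0.84 ± 0.19 (adjusted p = 0.00258). Slc7a3 (CAT3) had medians of 8.26 and 1.29 CPM in WT glands and tumors (−2.18 ± 0.31) and 3.02 and 1.43 in those of the KO (−0.96 ± 0.32). The KO call for Slc7a3 was lost without replicate 2 of the KO glands of week 8, 10 or 12, at −0.86 to −0.81. Slc7a2 (CAT2) differed by −0.32 ± 0.29 and 0.49 ± 0.30 and was not called. Slc7a4, an SLC7 gene whose transported substrate is uncertain, was lower in WT tumors (6.59 against 11.6 CPM, −0.81 ± 0.17), a call lost without replicate 2 of the WT glands of week 8 (−0.58), and had −0.09 ± 0.17 in KO mice.

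Slc7a11, which encodes xCT, had a median of 42.5 CPM in WT glands (27.1 to 45.6) and 14.8 in WT tumors (7.18 to 52.0), with a log2 fold change of −1.04 ± 0.29 (adjusted p = 0.0102). In KO mice it had 28.3 CPM (16.8 to 29.0) and 20.1 (10.6 to 24.1), and the difference of −0.58 ± 0.29 did not pass (adjusted p = 0.229). The highest WT tumor lay above every WT gland, so the fall was not shared by all tumors.

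The SLC1 family holds the glutamate transporters and the neutral exchangers ASCT1 and ASCT2, and its members went in both directions. Slc1a1, encoding the epithelial and neuronal glutamate transporter EAAC1, had a median of 1.02 CPM in WT glands and 5.44 in WT tumors, and 0.921 and 4.26 in KO mice (log2 fold changes 2.27 ± 0.43 and 2.63 ± 0.44). Its KO ranges did not overlap, and its WT ranges did. A protein-coding gene on the other strand, 4430402I18Rik, shares 2631 of its 8257 exon bases and had 432 reads over all libraries, against 7809. Slc1a2, encoding the glutamate transporter GLT-1, had 0.605 CPM in glands and 1.67 in tumors of WT mice (1.26 ± 0.24), and 0.779 and 3.22 in the KO (2.05 ± 0.25). Slc1a3, encoding GLAST, went the other way, from 4.52 to 1.09 CPM in the WT and from 5.07 to 1.35 in the KO (−1.68 ± 0.36 and −1.66 ± 0.36). Slc1a6 had at most 10 reads in a library and log2 fold changes of −1.61 ± 0.56 and −1.86 ± 0.57, and its call was lost without any of 4 WT and either of 2 KO libraries.

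The neutral exchangers moved less. Slc1a4 (ASCT1) had 37.0 CPM in WT glands and 23.9 in WT tumors (−0.61 ± 0.10, adjusted p = 7.47e-05), close to the fold threshold, and its call was lost without replicate 2 of the WT glands of week 6, 8 or 10 or of the WT tumors of week 6 or 10 (−0.58 to −0.55). In KO mice it differed by −0.24 ± 0.10. Slc1a5 (ASCT2) had 18.6 CPM in glands and 16.4 in tumors of the WT (−0.38 ± 0.23, adjusted p = 0.294) and 30.3 and 17.9 in the KO, where no tumor overlapped a gland (−0.83 ± 0.23, adjusted p = 0.0143).

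In SLC6, the largest changes were in genes of low level in glands. Slc6a14 (chrX:21714896-21742355), which encodes ATB0,+, a concentrative carrier of neutral and cationic amino acids, ranged from 0.0547 to 0.294 CPM in WT glands (3 to 15 reads per library) and from 1.82 to 5.49 in WT tumors (median 4.76). Among KO mice the glands had 0.108 to 1.11 CPM and the tumors 3.34 to 9.84 (median 7.17). The groups did not overlap, and the log2 fold changes were 4.76 ± 0.40 (adjusted p = 3.95e-09) and 4.27 ± 0.39 (adjusted p = 4.64e-08).

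Slc6a2 (chr8:92960079-93001667), the noradrenaline transporter and thus no amino acid carrier, had the largest fitted change of the 61 genes in both averaged comparisons, though not at each age, and in WT mice it differed from that of Slc6a14 by less than its SE. It ranged from 0.133 to 0.9499 CPM in WT glands (median 0.520) and from 3.52 to 42.1 in WT tumors (median 15.2), and in KO mice from 0.0985 to 1.84 (median 0.468) and from 10.0 to 53.6 (median 16.3). No tumor overlapped a gland. The log2 fold changes were 4.93 ± 0.50 (adjusted p = 6.06e-08) and 4.99 ± 0.52 (adjusted p = 2.14e-07). They were 5.6 without replicate 2 of the WT glands of week 8 and 5.81 without replicate 1 of the KO glands of week 12. The other monoamine transporter genes, Slc6a3 (dopamine) and Slc6a4 (serotonin), had at most 0.797 and 1.25 CPM in the WT libraries of weeks 6 to 10 and were lower in WT tumors (−1.42 ± 0.32 and −1.03 ± 0.34). The call for Slc6a4 was lost without replicate 1 of the WT glands of week 10 (−0.83) or replicate 2 of those of week 8 (−0.64). In KO mice they had −0.51 ± 0.36 and −0.35 ± 0.36 and were not called.

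Slc6a15, which encodes the branched-chain and proline carrier B0AT2, had a median of 3.26 CPM in WT glands and 1.29 in WT tumors, and 5.52 and 2.33 in KO mice (−1.60 ± 0.24 and −1.44 ± 0.24). Slc6a12, the betaine and GABA transporter, had at most 49 reads in a library of this comparison and was lower in WT tumors (−2.57 ± 0.66, and −1.88 without replicate 2 of the WT glands of week 8), with −1.33 ± 0.64 in KO mice. Slc6a18 had 0 to 13 reads per library, and its KO call (2.38 ± 0.90, adjusted p = 0.086) was lost without any of 9 of the 15 libraries. The taurine transporter gene Slc6a6 had 441 CPM in WT glands and 429 in WT tumors, and 391 and 558 in the KO (0.17 ± 0.17 and 0.42 ± 0.17), and was not called. Of the 4 SLC36 genes, which encode proton-coupled carriers of small amino acids, none was called in either genotype by edgeR, and 1 of the 4 had an unadjusted p under 0.05 in each (Slc36a4, at −0.47 ± 0.16 and −0.48 ± 0.16, under the fold threshold). Slc36a1, a lysosomal and plasma membrane member, differed by −0.15 ± 0.14 and −0.04 ± 0.14.

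Genes whose groups did not overlap were more often higher than lower in tumors, whereas more of the DEGs were lower. In WT mice 5 of the 61 genes had every tumor above every gland and 3 every tumor below, where 2.45% and 3.53% of all genes did. In KO mice the counts were 7 and 2, against 1.99% and 1.44% of all genes. Over all 19 tumors and 14 glands 4 genes were higher in every tumor, namely Slc38a3, Slc43a2, Slc6a14 and Slc6a2 (0.534% of all genes), and none was lower in every tumor (0.608% of all genes).

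The comparison was then made at each age, with 3 tumors against 2 glands, libraries that the averaged comparisons also used. In WT mice 11 of the 61 genes were DEGs at week 6 (5.86% of all genes), 18 at week 8 (9.19%) and 11 at week 10 (6.13%). In KO mice 9 were DEGs at week 8 (2.49% of all genes), 11 at week 10 (5.66%) and 12 at week 12 (6.11%). The count depended on single glands, with 5 DEGs at WT week 6 without gland replicate 2, 6 at WT week 10 without gland replicate 1, 5 at KO week 10 without gland replicate 2, and 5 or 0 at KO week 8 without gland replicate 2 or 1. Slc38a3, Slc43a2, Slc6a14 and Slc6a2 were higher and Slc38a4 and Slc7a8 lower at all 6 genotypes and ages. With the libraries of the compared groups alone in the fit, none of the 61 genes was called at KO week 12. Their presence at WT week 6 and KO week 8, the hyperplasia stage, put these differences at the earliest age sampled. A total of 20 genes were called at 1 or more of the 6, and 41 at none.

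**Figure D4:**
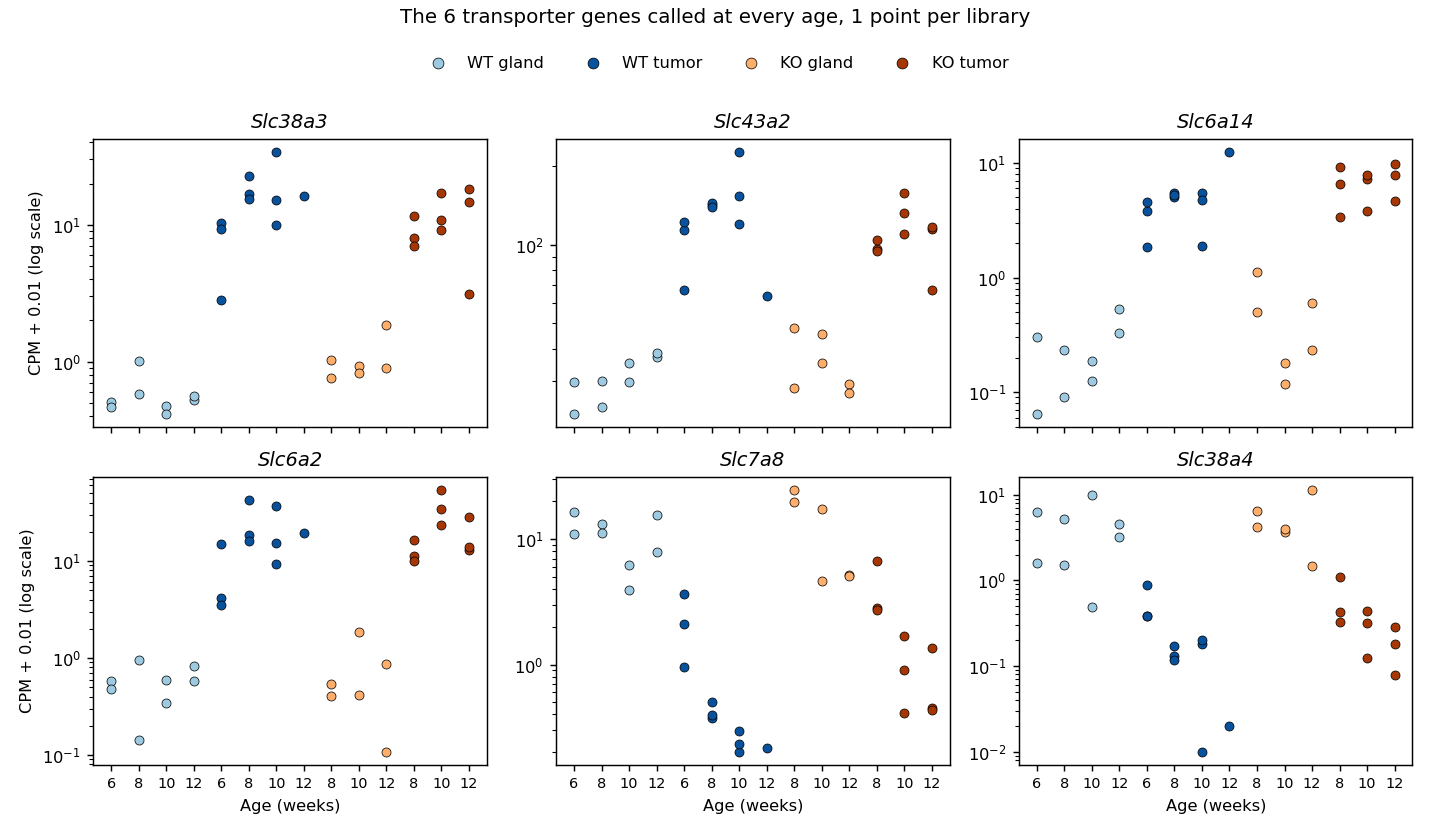
CPM plus 0.01 (log axis) of the 6 genes called at every genotype and age, 1 point per library, with age in weeks on the horizontal axis and colour for genotype and tissue. Slc38a3, Slc43a2, Slc6a14 and Slc6a2 are higher in every tumor than in every gland, while Slc7a8 and Slc38a4 reach their lowest levels in tumors of the later ages.

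WT and KO tumors were compared to ask whether PTHrP ablation altered these transporters. At a given age KO tumors were at an earlier stage (hyperplasia against adenoma at week 8, adenoma against carcinoma at week 10), so genotype and stage cannot be told apart in the comparison at matched age. At weeks 8 and 10, the ages that have tumors of both genotypes in replicate, 1 of the 61 genes was a DEG between 6 WT and 6 KO tumors, and 0.512% of all genes were. That gene was Slc7a8. At week 8 it had 0.488, 0.363 and 0.383 CPM in the 3 WT tumors and 2.81, 6.66 and 2.72 in the 3 KO tumors. At week 10 it had 0.192, 0.283 and 0.224 CPM in WT tumors and 1.67, 0.896 and 0.402 in KO tumors. The genotypes did not overlap at either age, while the lowest KO tumor of week 10 lay within the range of WT tumors of week 8.

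The log2 fold change of WT over KO tumors was −2.69 ± 0.42 for Slc7a8 (adjusted p = 0.0028), which is 6.45-fold lower in WT tumors. The call was kept in each of 12 fits without 1 of these tumors and in 10 of 10 other settings. At matched stage the values were −0.88 ± 0.51 for WT week 6 against KO week 8 (adjusted p = 0.446) and −1.67 ± 0.61 for WT week 10 against KO week 12 (adjusted p = 0.745), neither of them called. In glands of weeks 8, 10 and 12 WT and KO mice differed by −0.27 ± 0.35, and the difference of the tumor effects between genotypes was −1.70 ± 0.59, which did not pass after adjustment (adjusted p = 0.821). The 6 WT and 6 KO tumors had similar marker sums, with basal markers at 1739 to 3193 and 1499 to 4981 CPM and luminal markers at 4352 to 9831 and 5899 to 8348, and none of the 70 markers was a DEG between them. Their rRNA shares differed, at 0.00720% to 0.447% in WT and 0.00450% to 12.0% in KO tumors, and Slc7a8 stayed a DEG without the libraries over 5% and with the rRNA share in the fit.

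**Figure D5:**
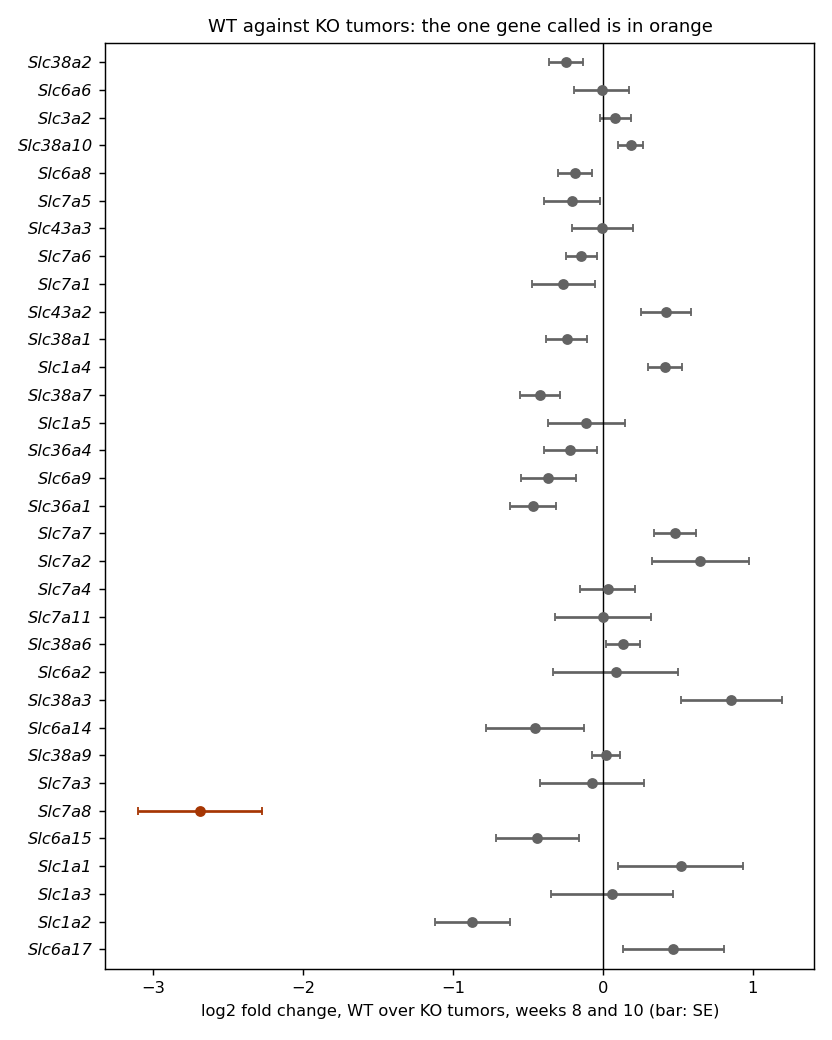
log2 fold change of WT over KO tumors at weeks 8 and 10 (6 against 6 tumors) for the transporter genes with a median of at least 1 CPM, ordered by level, with bars of 1 SE. Only Slc7a8 (orange, −2.69) passes both thresholds.

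At the hyperplasia stage (week 6 in WT, week 8 in KO), 4 of the 61 genes were DEGs (1.53% of all genes), each lower in WT tumors. Slc38a2 had 420, 392 and 411 CPM in WT tumors and 456, 819 and 755 in KO tumors (−0.73 ± 0.16, adjusted p = 0.0452). Slc36a1 had 17.2, 16.7 and 17.3 CPM against 21.0, 33.3 and 35.9 (−0.82 ± 0.22, adjusted p = 0.0781). These groups did not overlap, but the first KO tumor lay close to the WT tumors in both genes.

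Slc6a9, the glycine transporter GLYT1, had 14.9, 9.25 and 19.5 CPM in WT tumors and 16.7, 36.2 and 37.5 in KO tumors (−1.05 ± 0.26, adjusted p = 0.0684), with overlap. Slc1a2 had 1.78, 0.819 and 1.09 CPM against 2.28, 3.34 and 4.17 (−1.40 ± 0.36, adjusted p = 0.0708), with none. The rRNA share of the 3 KO tumors in the same order was 0.00572%, 12.0% and 3.62%, and in WT tumors it was at most 0.144%. Luminal marker sums did not overlap, at 8997 to 9716 CPM in the WT and 5899 to 7483 in the KO tumors, and basal sums did (2958 to 3332 and 1499 to 4981), and the part of either in the result was not tested. All 4 calls were lost without the libraries over 5% rRNA, with the rRNA share in the fit, and without any 1 of the 6 tumors other than replicate 1 of the KO tumors of week 8. The 2 groups also differed in age by 2 weeks, and genotype and age cannot be told apart in this comparison.

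At the carcinoma stage (week 10 in WT, week 12 in KO), 0 of the 61 genes were DEGs by edgeR (0.0192% of all genes), while 10 had an unadjusted p under 0.05 and DESeq2 called 1. WT and KO glands of weeks 8, 10 and 12 differed in 1 gene, Slc7a4 (0.906% of all genes were DEGs). It had 7.44, 16.7, 9.07, 14.4, 12.6 and 9.87 CPM in WT glands and 9.72, 7.07, 7.87, 4.99, 7.01 and 5.12 in KO glands, with overlap (0.76 ± 0.19, adjusted p = 0.0608). This call was lost with the rRNA share in the fit, without the libraries over 5% rRNA, and without any of 6 single glands. The tumor effect differed between the genotypes in 0 of the 61 genes by edgeR (0.00548% of all genes), with 8 at an unadjusted p under 0.05, and DESeq2 called none either.

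Ages were compared within a tissue to ask whether transporters change as tumors progress. Between WT tumors of week 10 and week 6, 0 of the 61 genes were DEGs by edgeR (0.011% of all genes), with 11 at an unadjusted p under 0.05 and 1 called by DESeq2. Between KO tumors of week 12 and week 8 the count was 0 (0% of all genes), with 12 and 2. Between WT glands of week 12 and week 6 it was 0 (0.35% of all genes), with 12 and 4. Slc7a8 had the smallest p of the 61 genes in both tumor comparisons, at −3.24 ± 0.61 in WT tumors (adjusted p = 0.115) and −2.45 ± 0.54 in KO tumors (adjusted p = 0.442). Its level per group in WT tumors was 2.23 ± 1.35 CPM (SD, n = 3) at week 6, 0.411 ± 0.0675 at week 8 and 0.233 ± 0.0464 at week 10, and in KO tumors 4.06 ± 2.25 at week 8, 0.989 ± 0.638 at week 10 and 0.731 ± 0.521 at week 12. Mean levels in WT glands were 13.8, 12.2, 5.08 and 11.7 CPM at weeks 6, 8, 10 and 12 (n = 2 each). KO glands had lower means at later ages, as KO tumors did, at 22.1, 11.1 and 5.14 CPM at weeks 8, 10 and 12 (n = 2 each), and ages of KO glands were not compared by a test.

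Genes of other amino acid pathways were read beside the transporters. Of 19 other amino acid and peptide carriers tested, 4 were higher and 3 lower in WT tumors, and 4 were higher and 1 lower in KO tumors, where 15.7% and 10.6% of all genes were DEGs in either direction. The median log2 fold changes were −0.08 and 0.21, beside 0.03 and 0.09 for all genes. The 3 largest changes in WT mice were Slc15a1, a proton-coupled peptide carrier (1.97 ± 0.31), Slc25a18, a mitochondrial glutamate carrier (1.75 ± 0.31), and Slc15a3, a lysosomal peptide and histidine carrier (−1.49 ± 0.34). In KO mice they were Slc15a1 (2.16 ± 0.32), the peptide carrier Slc15a2 (1.51 ± 0.19) and Slc25a18 (1.32 ± 0.31).

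Of 24 genes of amino acid synthesis, 8 were lower and 1 higher in WT tumors (9.53% and 6.21% of all genes), and 7 were lower and none higher in KO tumors (5.44% and 5.16%). Bcat1, the cytosolic branched-chain aminotransferase, had the largest change, −3.95 ± 0.38 in WT and −3.17 ± 0.37 in KO mice. Cth and Cbs, the enzymes of transsulfuration that make cysteine, had −1.22 ± 0.24 and −1.03 ± 0.27 in the WT, and −0.81 ± 0.24 and −1.80 ± 0.28 in the KO. The median log2 fold changes of this list were −0.31 and −0.32, beside 0.03 and 0.09 for all genes. Of 25 genes of amino acid sensing through mTORC1 and GCN2, 1 was higher in both genotypes, Sesn3 (1.00 ± 0.15 and 1.08 ± 0.15), and 1 was lower, Castor2 (−1.41 ± 0.14 and −0.65 ± 0.14). Over all genes 15.7% (WT) and 10.6% (KO) were DEGs in either direction, and the difference in share was not tested. Castor2 was also the one gene of these 3 lists called between WT and KO tumors of weeks 8 and 10 (−0.65 ± 0.16, adjusted p = 0.0717 by edgeR). The basal marker sums of the same libraries moved with these changes as well, and their part was not tested.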

How the data were processed

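RNAseq libraries of sorted GFP+ cells from 33 mice were used, in 14 groups of genotype, tissue and age taken from the sample labels. The authors depleted rRNA, made stranded libraries, aligned reads with HISAT to Gencode M16 and GRCm38, used Picard 1.128 against duplicate reads and HTSeq for counting, and the table they deposited holds raw counts. Whether HTSeq used strand is not given in the sources used here, so reads of a gene and of an overlapping gene on the other strand may not be separated. Members that share exon bases with such a gene are Slc1a1, Slc1a2, Slc3a1, Slc6a6, Slc6a9, Slc7a2, Slc7a4, Slc7a7, Slc7a10, Slc38a9, Slc38a10 and Slc43a2. They also deposited a normalized signal table, counts divided by a size factor per library, which was used for 1 alternative. Of the counted reads, 0.0778% lay on 111 rows that name no mouse gene (reporters, Cre, spike-ins and the like), which were left out.

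All 36527 genes with at least 10 reads over the libraries were tested in edgeR 4.0.16 (estimateDisp, glmQLFit, glmQLFTest, TMM normalization, 1 coefficient per group, all 33 libraries), and 16 comparisons were made. The WT tumor of week 12 has no replicate and entered the fit but no comparison. Genes were called at a fold change over 1.5 with a Benjamini-Hochberg adjusted p under 0.1, the study's thresholds. SE was taken as |log2 fold change| over the root of F. Lists were described by counts and medians only. Named genes were 15 well known transporters and the 3 called genes of largest change of each other list. Every member called between genotypes, or between tumors and glands averaged over ages, was also named. Slc36a4, Slc38a10 and Slc6a8 were named after their values were seen. The members and lists were chosen with earlier results of these data known. CPM per kb used exon lengths and coordinates of Gencode M21 (GRCm38), and promoters came from RefSeq. The fit was tested on simulated counts. Alternatives were DESeq2 1.42.0 (the study's tool), its size factors, other filters, the groups compared only, a replicate block, the rRNA share as covariate and each library left out. Fits with 1 library left out kept the genes and the dispersion trend of the fit of all 33 libraries, so they were not full refits. Chosen after seeing the data were limma 3.58.1 on the normalized table (log2 of value + 1), a fit without the 4 libraries over 5% rRNA, and protein-coding genes only. In 25 pairs of libraries of 1 group no duplicate was found. Each library is 1 mouse, and the labels give no batch.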

Additional observations from a re-analysis of the deposited data

Results flagged for a closer look

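The WT tumor of week 12 has no replicate and entered no comparison, and 7 of the transporter genes higher in tumors of both genotypes were examined in it. All 7 lay above the highest of the 8 WT glands in this library, and the share of all genes that did so was not computed. The 6 WT glands of weeks 6 to 10 had also been used to call these genes. Of 36 members with at least 1 CPM in any WT library, 12 lay above and 12 below all 8 WT glands in this tumor. Among the same 36, 10 lay above and 7 below all 9 other WT tumors. Slc6a2 had 19.3 CPM, Slc38a3 16.2 and Slc6a14 12.4, while Slc43a2 had 63.8, Slc38a6 13.5, Slc1a1 8.21 and Slc1a2 3.92. The values of Slc6a14 and Slc1a2 were also above all 9 other WT tumors, whose highest values were 5.49 and 2.40 CPM. Those of Slc43a2 and Slc38a6 were below all 9, whose lowest values were 67.2 and 13.6. Of the 9 members lower in tumors of both genotypes, 6 lay below all 8 WT glands in this tumor and 3 lay within their range, namely Slc6a15 at 4.24 CPM (glands 1.498 to 6.76, other WT tumors at most 2.15), Slc1a3 at 2.54 (1.22 to 7.46) and Slc1a6 at 0.0393 (0.0202 to 0.181). Its distance from the other WT tumors was not tested.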

How the results depend on the processing

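The averaged comparisons of tumors with glands kept their counts within 1.5 times, at 19 to 23 (WT, 22 as reported) and 16 to 20 (KO, 19) with 1 library left out and at 21 to 24 and 18 to 20 in the other settings. With 1 library left out, single ages gave 5 to 12 genes at WT week 6, 14 at WT week 8, 6 to 15 at WT week 10, 0 to 10 at KO week 8, 5 to 11 at KO week 10 and 10 to 14 at KO week 12. Genotype comparisons gave 1 to 2 genes for tumors of weeks 8 and 10, 0 to 6 for WT week 6 against KO week 8, and 0 to 2 for glands. The 2 was reached without replicate 1 of the KO tumors of week 8 and of the KO glands of week 12. The 0 for glands came without replicate 2 of the KO glands of week 8, 10 or 12, replicate 2 of the WT glands of week 8 or 10, or replicate 1 of those of week 12. Age comparisons gave 0 to 3 for WT tumors (3 without replicate 3 of week 10, 1 without replicate 2 of week 6) and 0 to 4 for KO tumors (4 without replicate 1 of week 8).

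With no filter on low counts, the calls were 17 at WT week 6, 4 for WT against KO tumors, 2 each for WT week 10 against KO week 12, for glands, for the difference of tumor effects (Slc43a2 and Slc7a5) and for KO tumors by age, and 4 each for WT tumors and WT glands by age. DESeq2 gave 14 at KO week 8, 3 for WT against KO tumors (Slc1a2, Slc7a8 and Slc38a4), 8 for WT week 6 against KO week 8, 1 for WT week 10 against KO week 12, 3 for glands, and 1, 2 and 4 for WT tumors, KO tumors and WT glands by age. With the compared groups only, the counts were 7 at WT week 10, 0 at KO week 12, 0 for WT against KO glands and 1 for WT glands by age. The rRNA share as covariate gave 0 for WT week 6 against KO week 8 and 0 for glands, and filterByExpr gave 2 for WT against KO tumors. Of the alternatives chosen after seeing the data, the fit without libraries over 5% rRNA gave 4 at KO week 8, 0 for WT week 6 against KO week 8, 0 for glands and 1 for WT tumors by age (Slc7a8), protein-coding genes only gave 7 for WT week 6 against KO week 8, and limma gave 1 for WT week 10 against KO week 12, 2 for glands and 1 for WT tumors by age. The cause of these shifts was not tested.

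Replicate numbers did not pair tumors with glands, since deviations of same-numbered libraries correlated between −0.606 and 0.597 and over 0.1 in 3 of 12 pairs. With a replicate block 1 gene, Slc6a15, was called for WT week 10 against KO week 12, and no other count left 1.5 times the reported one. Over 33 named members and 6 comparisons, 4035 of 4151 alternative values kept their side of the thresholds, 72 lost a call and 43 gained one. Of the 4035, 2977 were called in neither fit, and 177 of these changed sign. A called value reversed in 1 case, Slc38a5 in KO mice, at −2.60 to 0.12 with 1 library left out. The 0.12 came without replicate 1 of the KO glands of week 12, which leaves 1 gland of 0 reads at that age. With 2 glands per age, the single-age counts rest on few mice. Recovering whole reads from the normalized table was not run.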

Other observations

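Nearby genes of a family differed in the size of their changes. On chromosome 15, Slc38a4 fell to a median of 0.189 CPM over the 19 tumors from 4.05 over the 14 glands. Slc38a1 and Slc38a2, which lie near it, were called in neither averaged comparison of tumors with glands. The ranges of all 3 genes overlapped between tumors and glands, for Slc38a4 through a WT gland of 0.482 CPM. On chromosome 2, Slc43a1 (chr2:84838850-84863594) had a log2 fold change of −3.06 in WT mice, and Slc43a3 (chr2:84936579-84958509), on the same strand, had 0.05. In KO mice both were called lower, at −2.39 and −0.73.

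Transporter light chains were also read per heavy chain. The levels of Slc7a5, Slc7a6, Slc7a7, Slc7a8, Slc7a10 and Slc7a11 were summed and divided by that of Slc3a2, all in CPM per kb. Slc7a9, Slc7a12, Slc7a13 and Slc7a15, the other light chain genes, were not in the sum. The ratio had a median of 1.05 in WT glands (0.806 to 1.33) and 0.724 in WT tumors (0.573 to 1.03). In KO mice it was 0.975 (0.720 to 1.48) in glands and 0.843 (0.764 to 0.941) in tumors. The ranges overlapped, and the difference was not tested.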
